A study of Homo sapiens with 8 samples.

Results

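Genes with exactly 1 YTHDF2 binding site made up 1662 of the 7421 protein-coding genes that held any site, or 22.4%, and their sites were 4.65% of the 35727 sites that could be assigned to a gene. A site here is a distinct position, on 1 strand, in the site list that the authors deposited. It was assigned where it lay inside the genomic span of a single protein-coding gene and on that gene's strand, with readthrough genes left out, and the members are the sites of genes left with exactly 1. The members were thus chosen by a count taken from the data, and that count is not a finding. In 70 of the 1662 genes a further position on the same strand lay where the gene overlaps another one and was assigned to neither, so 1592 genes held no other position at all by this measure.

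The list comes from iCLIP2 of YTHDF2 in HEK293T, an established human embryonic kidney cell line labelled as wild type. The method fixes protein to RNA with ultraviolet light, pulls the protein down with an antibody and maps where reverse transcriptase halts on the bound RNA. The 8 libraries are 4 of cells kept for 12 h in 20 µM STM2457, which inhibits the m6A writer METTL3, with 0.2% DMSO, and 4 of cells kept in 0.2% DMSO; no label says that replicates were separate cultures. The site list carries a position, a strand and a score for each row, and no value of any library, so no treatment was compared, the spread between replicates is not known, and the depth behind a site is unknown. Every comparison below is a description across sites or genes of this list, which are not replicates, and none was tested. Intervals are exact binomial 95% intervals, which cover counting error only.

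YTHDF2 belongs to the YTH-domain family of proteins, whose hydrophobic pocket holds the methyl group of N6-methyladenosine (m6A), a mark placed on messenger RNA. The methyltransferase complex acts on adenosines within a short consensus called DRACH, in which the methylated adenosine is followed by a cytosine and preceded by a purine. In the cytoplasm, YTHDF2 recruits the CCR4-NOT deadenylase complex to bound mRNAs and so promotes their decay. The mark is known to be dense in long internal exons and near stop codons, and sparse near exon junctions.

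The sequence at the site could be read for 26 members, those that happened to lie with 12 nt on each side inside a RefSeq promoter window (GRCh38.p14, from 250 nt before to 50 nt after a gene start), 15 of them in a window of their own gene. The 10 with the highest scores are shown because they display what the listed nucleotide is. Each sequence is 25 nt of the transcribed strand, 5′ to 3′ and written as DNA, and the capitals mark the listed nucleotide with the 2 bases on either side of it.
UQCC3: cccaaaccctGGACTgactgcttta
NRGN: cctagccccaAGACTttggatccgg
PPM1E: gcccgaacctGAACTggtagaagct
MTX1: agtgtttccgGGACAgagggtgggc
ATP5PO: cactcgggttTGACCtacagccgcc
PSMC6: cccctatgagAGACGgcttctcatc
WDR74: agagacagatGAACTttgggcatcc
UQCC2: aacggggccgGGACTtgggcgctta
ATP5MG: ttccggcgggTGACAttcagccggc
TMEM79: acacatctttGAACCttgtggccag

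The shown stretches lie at chr11:62672270-62672294 (plus strand) in UQCC3, chr11:124746851-124746875 (plus) in NRGN, chr17:58756141-58756165 (plus) in PPM1E, chr1:155209224-155209248 (plus) in MTX1 and chr21:33915773-33915797 (minus) in ATP5PO. The others lie at chr14:52707195-52707219 (plus) in PSMC6, chr11:62833057-62833081 (minus) in WDR74, chr6:33711598-33711622 (minus) in UQCC2, chr11:118401608-118401632 (plus) in ATP5MG and chr1:156291646-156291670 (plus) in TMEM79. Their scores run from 171 in UQCC3 to 7.10 in TMEM79. ATP5PO, PSMC6 and ATP5MG hold theirs at 20, 8 and 15 nt from their own start, while UQCC3, NRGN, PPM1E, MTX1, WDR74, UQCC2 and TMEM79 were read in the window of another gene.

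Every one of the 26 listed nucleotides was an adenosine (26 of 26, interval 86.8 to 100%), with a C after it, an A or G before it, and an A, G or T before that. Among the flanking bases of the same windows, outside the 5 central ones, 19.8% were A. The DRACH consensus stands for 18 words, namely AAAC or AGAC, their counterparts with G in front, GAAC or GGAC, and those with T in front, TAAC or TGAC, each followed by A, by C or by T. One of these words, read on the transcribed strand and centred on the listed base, was found at 21 of 26 single sites (80.8%, interval 60.6 to 93.4). The other 5 sites, in PSMC6, CD63, COX17, SERF2 and COX16, had a G as the last base, as in the AGACG of PSMC6. With these 5 included, the first 4 letters were GGAC at 10 of the 26 sites, TGAC at 6, GAAC at 5, AGAC at 4 and TAAC at 1.

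Of 177 sites of genes with 2 or more sites inside the windows, 177 were an adenosine with the same 3 neighbours, 153 (86.4%, interval 80.5 to 91.1) had a DRACH word centred on it, and 64 (36.2%) began with GGAC, against 10 of 26 (38.5%) single sites. AGAC stood at 4 of 26 (15.4%) single and 24 of 177 (13.6%) other sites, and GAAC at 5 (19.2%) and 35 (19.8%). TGAC differed more, at 6 of 26 (23.1%, interval 8.97 to 43.6) single and 16 of 177 (9.04%, interval 5.26 to 14.3) other sites, with overlapping intervals. AAC stood at 6 of 26 single sites (23.1%, interval 8.97 to 43.6) and 73 of 177 others (41.2%, interval 33.9 to 48.9), and GAC at the rest. A DRACH word anywhere in the 25 nt was present at 22 of 26 single sites (84.6%), and at 21 of them it was centred on the listed base. That share is therefore not separate from which base is listed, and it measures no enrichment around the sites. For scale, 24.5% of the 44210 stretches of that length cut from the first 50 nt of protein-coding genes held one. On the opposite strand of the single-site windows 8 of 26 did (30.8%, interval 14.3 to 51.8). Across the whole list, 0 neighbouring positions of a strand lay 1, 2 or 3 nt apart, and 155 pairs lay 4 nt apart. The sources used here do not say how the authors arrived at the listed nucleotide. In these windows it was an adenosine in the setting of the first 4 letters of the consensus, so a listed position is called a site below and not a crosslinked nucleotide.

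The score that the authors give each site has an unstated scale and was used only to describe and rank sites. The 1662 single sites had scores from 0.0162 to 362, with a median of 7.72 and quartiles of 4.13 and 14.3. The 2504 sites of genes with 2 sites, the nearest genes outside the rule, had a median of 7.44 and quartiles of 3.59 and 15.2. All 34065 sites of genes with 2 or more sites had a median of 8.74 and quartiles of 3.72 and 21.2. In percentile rank over the whole list the single sites had a median of 46.4 and the others 50.2. With the lower score of positions on 2 rows these were 49.3 and 50.03, and in the shorter part of the list (described at the end), where 2230 genes held 1 site, 50.2 and 49.8. The single sites spanned a narrower middle range, from 27.4 to 65.2 in percentile rank between their quartiles, against 24.9 to 75.4. A score of 100 or more was reached by 26 single sites (1.56%) and by 1122 of the others (3.29%), and a score under 1 by 103 (6.20%) and 2450 (7.19%).

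Which site stands for the other genes decides how far apart the groups lie. With the highest-scoring site of each gene with 2 or more sites, the median over genes was 28.9, with the median site 8.82 and with the lowest-scoring site 1.93, so the 7.72 of single sites was close to the median site. In genes with 2 sites the higher site had a median score of 13.0 and the lower 4.23. In genes with 10 or more sites the highest-scoring site had a median of 61.6. A maximum over several sites lies above a single draw by construction, so the rise of the top score with the number of sites is not a result about single sites.

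**Figure D1:**
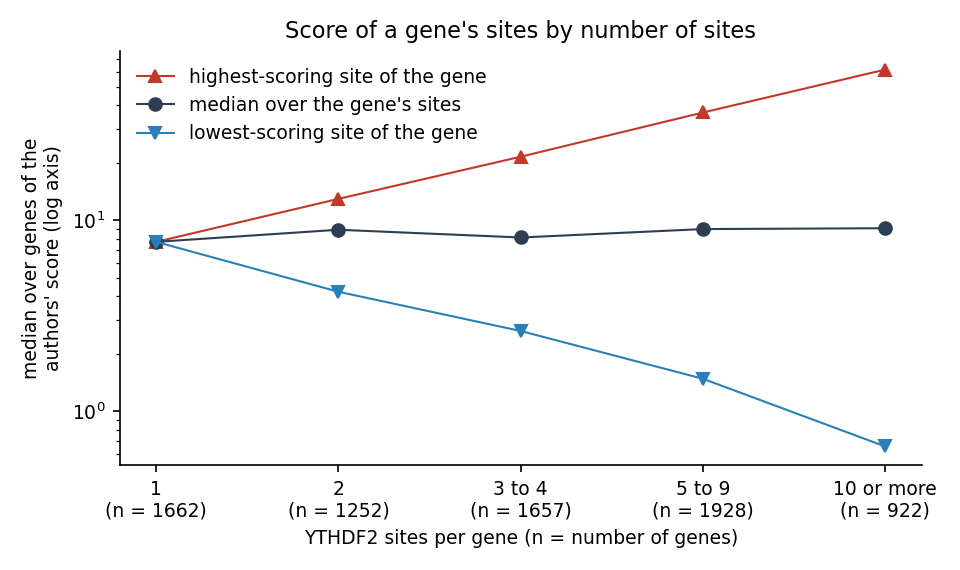
Median over genes of the authors' score (log axis) of the highest-scoring, the median and the lowest-scoring site of a gene, against the number of sites per gene (n = number of genes; no error bars, since the list has no replicates). The 3 lines start from the 7.72 of single-site genes and part to 61.6, 9.11 and 0.656 in genes with 10 or more sites.

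The 10 single sites with the highest scores lay in short genes. The histone gene H2AC11 had the highest, 362, at 27133432 on the plus strand of chromosome 6 (GRCh38 here and below), 390 nt from the start of a gene that spans 493 nt. UQCR10, a small subunit of respiratory complex III, followed with 360 at 29769872 on the plus strand of chromosome 22, 541 nt before the gene's end. ATRAID, a gene named for its induction by retinoic acid, had 254, and NOP10, a protein of the H/ACA ribonucleoproteins that guide pseudouridylation, had 225, 179 nt before its end.

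MRPL55, a protein of the large mitochondrial ribosomal subunit, had 202 at 52 nt before its end, and the histone genes H2BC26 and H3C12 had 194 and 187. UQCC3, an assembly factor of complex III, had 171 at 610 nt from its start, in the word GGACT shown above. SRSF9, a serine- and arginine-rich splicing factor, had 166, about midway along its 8.08 kb (4038 nt from the start and 4039 from the end). EEF1B2, the beta subunit of the exchange factor for translation elongation factor 1, had 157, 88 nt before its end. Of the 26 single sites with a score of 100 or more, 18 lay in genes spanning under 10 kb and 17 within 1 kb of the gene's end. Of all 1662 single-site genes, 1310 span 10 kb or more, and 490 of the 1662 sites (29.5%) lay within 1 kb of the end. In a gene spanning under 1 kb the site lies within 1 kb of the end whatever its place. In genes of 10 kb or more 23.2% of single sites did, so the share was above 29.5% in shorter genes. The counts of 18 and 17 are therefore not independent. Sites of genes with 2 or more sites also scored highest in short genes. Their median was 10.7 in the shortest of 10 equal classes by span and 7.29 in the longest, against 10.1 and 7.85 for single sites. Histone genes have near-identical copies, and the sources used here do not say how reads were assigned among them, so their scores are uncertain.

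Positions given on 2 rows entered with the higher score, and for some of these leading sites the scores differed widely. The list holds 187 single sites on 2 rows, with a median lower score of 5.88 and a median higher one of 17.3. In ATRAID the scores were 28.04 and 254, in H3C12 67.6 and 187, in EEF1B2 44.6 and 157, and in H2BC26 155 and 194. H2AC11, UQCR10, NOP10, UQCC3 and SRSF9 were on a single row.

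Single sites leaned to the 3′ end of genes. In the 1310 single-site genes spanning 10 kb or more, the final 1 kb held 304 sites (23.2%, interval 20.9 to 25.6) and the first 1 kb 79 (6.03%, interval 4.80 to 7.46). Of the sites of genes with 2 or more sites, 12.2% (interval 11.8 to 12.6) lay in the last 1 kb and 3.14% (interval 2.95 to 3.35) in the first. The share in the last 1 kb was lower with each step in the number of sites, from 20.9% in genes with 2 sites (interval 19.2 to 22.8) to 18.1% with 3 to 4, 14.1% with 5 to 9 and 6.79% with 10 or more. The interval of genes with 2 sites overlapped that of single-site genes. These are shares of sites and not of genes, at 416 of 1986 sites with 2 per gene and 803 of 11832 with 10 or more. Their denominator grows with the site count that the rule uses, while the window stays at 1 kb. Neither the fall with each step nor the gap to all other sites therefore shows a trait of single-site genes.

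With each gene cut into 10 equal stretches, 690 single sites (52.7%) lay in the last stretch, 118 (9.01%) in the first and 33 (2.52%) in the fourth, the least filled. In genes with 2 sites the last stretch held 53.1% and the first 7.25%, and in all genes with 2 or more sites 43.0% and 6.84%. Of single sites in the final 1 kb, 11 lay in the terminal 100 nt and 97 between 100 and 300 nt from the end. Spans include introns, and exon and coding boundaries were not used here, so these shares do not separate coding sequence from untranslated sequence.

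**Figure D2:**
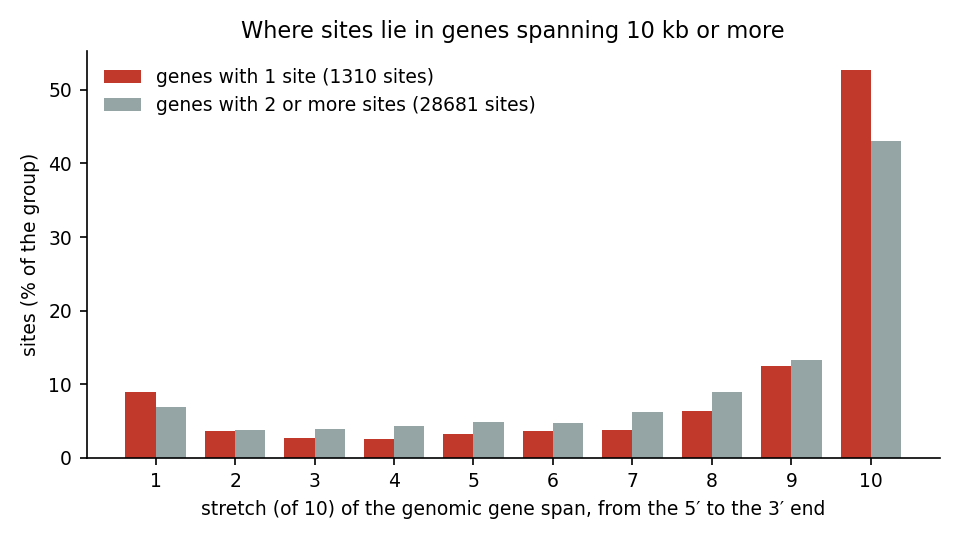
Share of sites in each of 10 equal stretches of the genomic gene span, from 1 at the 5′ end to 10 at the 3′ end, in genes spanning 10 kb or more. Red bars are the 1310 single sites and grey bars the 28681 sites of genes with 2 or more sites. Both groups peak in the last stretch, at 52.7% and 43.0%.

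Among long genes the highest-scoring single sites in the last 1 kb were in MTA1, a subunit of the NuRD deacetylase complex, with a score of 120 at 375 nt before the gene's end, and in BLVRA, the biliverdin reductase, with 113 at 215 nt. UQCRH, the hinge protein of complex III, had 88.2 at 183 nt, HDAC3, a histone deacetylase, 83.5 at 240 nt, and SNW1, a splicing and transcription cofactor, 78.6 at 463 nt. In the first 1 kb scores were lower at the top, but it held 79 sites against 304, and a maximum over fewer sites tends to be lower. GINS1, a subunit of the replicative helicase complex, had 48.9 at 172 nt from the gene's start, the membrane protein ITM2B 33.8 at 265 nt, and PDSS2, an enzyme of coenzyme Q synthesis, 26.5 at 284 nt. The kinase of the Mediator complex, CDK8, had 25.3 at 518 nt, and PRKACB, a catalytic subunit of protein kinase A, 22.4 at 178 nt. The medians differed less than these leaders, with 9.02 in the last 1 kb, 7.65 in the first and 6.998 elsewhere.

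A few single sites lay almost at the annotated start of the gene. Within the first 50 nt there were 12 of 1662 single sites (0.722%, interval 0.374 to 1.26) and 53 of 34065 other sites (0.156%, interval 0.117 to 0.203). In genes with 2 sites there were 7 of 2504 (0.280%, interval 0.112 to 0.575). These are shares of sites and not of genes. The 53 other sites lay among 5759 genes with 2 or more sites and the 12 among 1662 genes. Counted per gene, single-site genes thus had no more sites at the start than the others. Within the first 100 nt the counts were 18 single sites (1.08%, interval 0.643 to 1.71), 24 sites of genes with 2 sites (0.958%, interval 0.615 to 1.42) and 119 of all other sites (0.349%), so single sites were close to genes with 2 sites at that distance. The smallest distances from the start were 2 nt in ATP5MJ, a small subunit of the ATP synthase, 5 nt in COX16, an assembly factor of cytochrome c oxidase, and 6 nt in OST4, a subunit of the oligosaccharyltransferase, with scores of 0.327, 0.667 and 0.468. PSMC6, an ATPase of the proteasome, and RPL23A, a protein of the large ribosomal subunit, each had theirs at 8 nt, with scores of 11.7 and 55.1. ATP5MG and ATP5PO, also ATP synthase subunits, had theirs at 15 and 20 nt with scores of 7.99 and 12.1, EMC4 at 17 nt, COPS8 at 24, COX17 at 27, CHERP at 39 and LSM3 at 43 nt. The strands of RPL23A and CHERP were not in the promoter table and were taken from the site itself. Distances count from the outermost annotated start, so a transcript that begins elsewhere would shift them.

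The share of single-site genes varied little with gene span. With the bound genes cut into 10 equal classes by genomic span, the share with 1 site was 25.6% in the shortest class (interval 22.5 to 28.9, 0.388 to 5.69 kb) and 20.9% in the longest (interval 18.02 to 23.99, from 154 kb), with the other classes between 20.1 and 23.9%. The median span was 29.0 kb in single-site genes and 33.4 kb in genes with 2 or more sites, and 50.5 kb in those with 10 or more. The 18 single-site genes spanning under 1 kb were all histone genes, and their sites had a median score of 33.7 against 7.55 in genes of 10 to 100 kb.

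**Figure D3:**
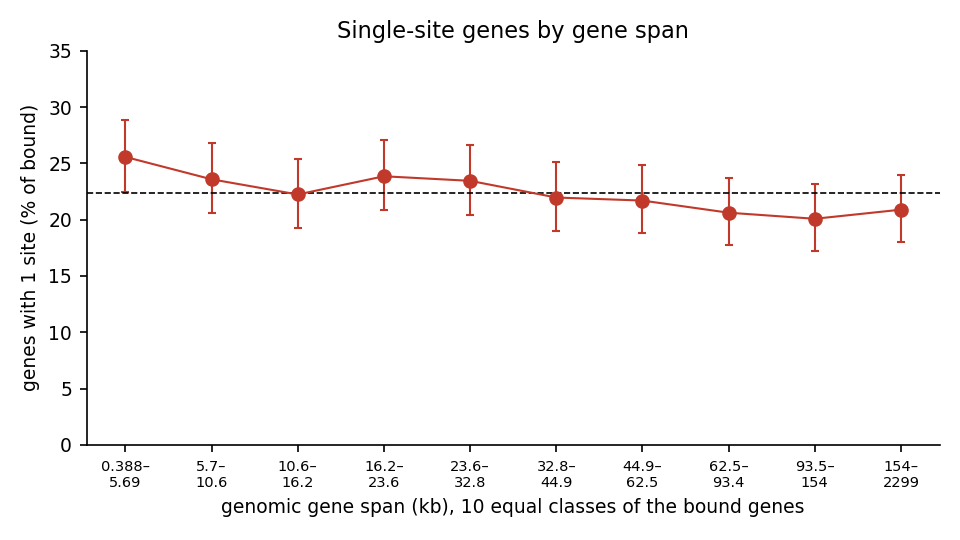
Share of bound genes that held exactly 1 site, in 10 equal classes of the bound genes by genomic span (kb); bars are exact binomial 95% intervals and the dashed line is the 22.4% of all bound genes. The classes lie between 20.1 and 25.6%.

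At the far end, 51 single-site genes spanned over 300 kb. CCSER1, the longest at 1478 kb, had its site 181197 nt from the start with a score of 2.67. GALNT13, an enzyme that starts mucin-type O-glycosylation, had its site 6081 nt before the end of a span of 1388 kb, with a score of 12.5. ERC2, a scaffold of the presynaptic active zone, and EPHA6, an ephrin receptor, had scores of 6.15 and 0.670, with 927 and 774 kb of gene after the site. NBAS, a factor of retrograde transport between Golgi and endoplasmic reticulum, had 5.50, at 285641 nt from the start.

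Gene families differed widely in how many of their bound genes held a single site, and the values below are read against the 22.4% of all bound genes. Counts of bound genes are to be set beside the 37.2% of all 19932 protein-coding genes that were bound. The lists were drawn up with earlier results on histone, ribosomal protein, respiratory chain and zinc finger genes of this list known, so their order is not independent support for those. Of 26 lists with 5 or more bound genes, 10 lay above 22.4% and 16 below, and the interval excluded 22.4% for 3 lists above and 2 below.

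**Figure D4:**
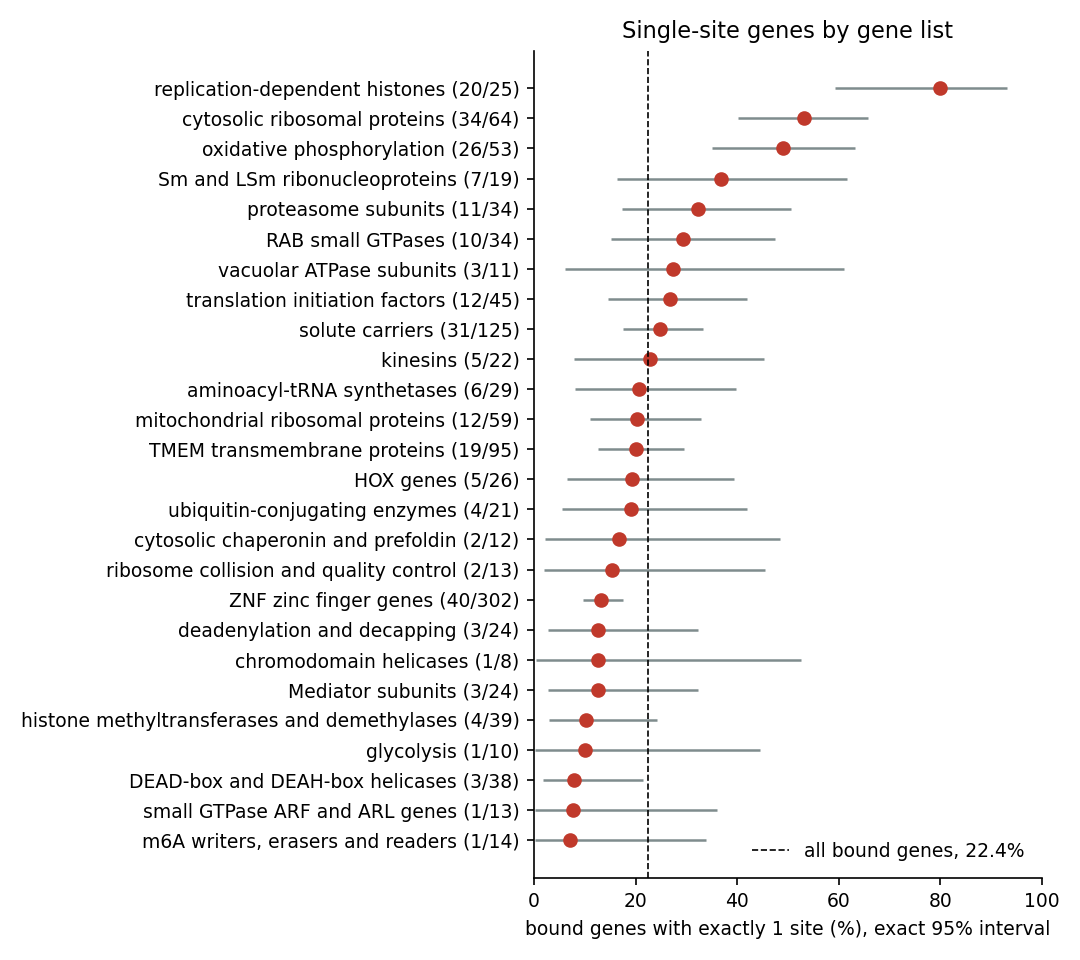
Share of bound genes with exactly 1 site in each gene list with 5 or more bound genes; numbers in brackets are single-site over bound genes, lines are exact binomial 95% intervals and the dashed line is the 22.4% of all bound genes. Histones (80.0%), cytosolic ribosomal proteins (53.1%) and oxidative phosphorylation genes (49.1%) lie highest.

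Replication-dependent histone genes, which are short, lack introns and make mRNAs that end in a stem-loop in place of a poly(A) tail, had the largest share of single sites. Of 69 such genes 25 (36.2%) were bound, 20 of these 25 (80.0%, interval 59.3 to 93.2) by 1 site and 5 by 2. All 6 bound H2A genes and all 3 bound H4 genes had 1 site, as did 5 of 7 H2B genes, 5 of 7 H3 genes and 1 of 2 H1 genes. Among bound genes spanning up to 1 kb, 18 of 21 histone genes and 0 of 8 other genes (interval 0 to 36.9%) held a single site. The histone single sites had a median score of 33.7, with 5 of 20 at 100 or more.

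Of the 20 single-site histone genes, 18 span under 1 kb. Among H2B genes, H2BC26, H2BC17 and H2BC7 had their site 218, 229 and 234 nt from the start and 238, 238 and 239 nt before the end, with H2BC15 further along at 284 nt. H2BC12 had its site at 251 nt from the start of a longer annotated span. The scores of these H2B sites ran over a wide range, at 194 in H2BC26, 116 in H2BC12, 20.2 in H2BC17, 1.80 in H2BC15 and 0.951 in H2BC7.

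Among H3 genes spanning under 1 kb, the site lay 359 nt from the start in H3C1, 383 in H3C13, 394 in H3C10 and 405 in H3C12, with scores of 50.3, 32.7, 94.5 and 187. H3C6, with a longer annotated span of 3296 nt, had its site at 1348 nt with a score of 5.57. H2A sites lay at 336 nt in H2AC20, 338 in H2AC4, 349 in H2AC6, 390 in H2AC11, 397 in H2AC15 and 483 in H2AC25. H4 sites were spread, at 65 nt in H4C5, 272 in H4C2 and 321 in H4C4. No sequence was at hand at these positions, and reads from near-identical copies can share a place, so near positions in paralogs are not independent observations.

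**Figure D5:**
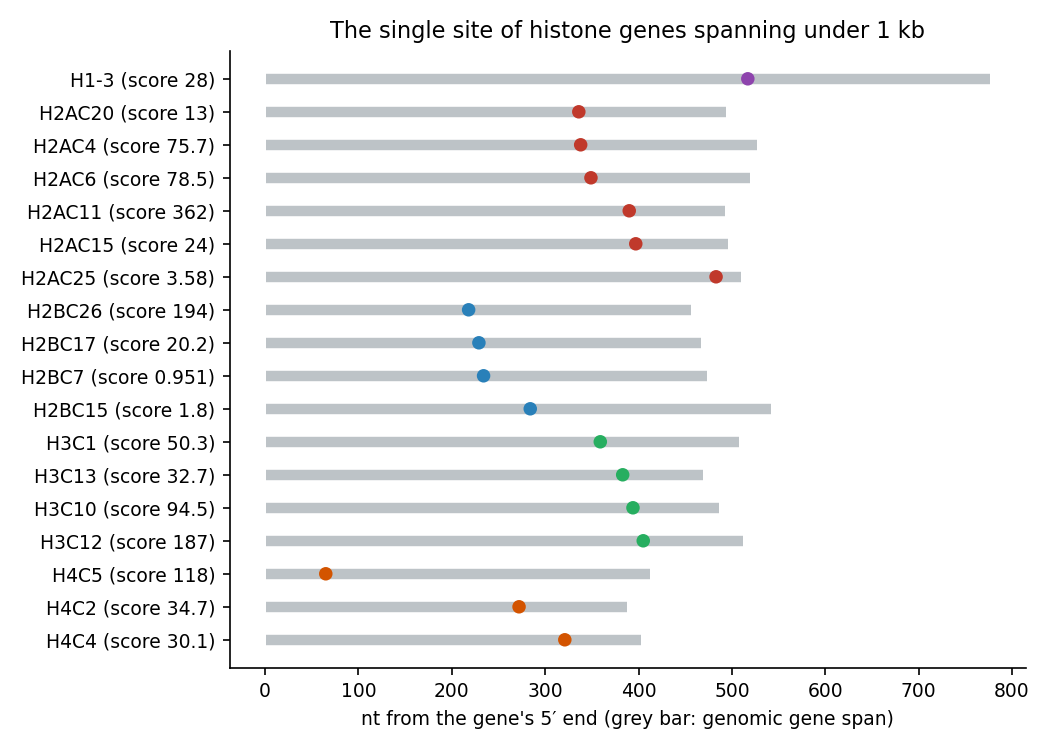
The single site (dot, coloured by histone class) in the 18 single-site histone genes spanning under 1 kb, in nt from the gene's 5′ end; grey bars are the genomic gene spans and the authors' score is given beside each name. Dots of 3 of the 4 H2B genes lie between 218 and 234 nt and those of the H3 genes between 359 and 405 nt.

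Genes for proteins of the cytosolic ribosome came next. Of 89 genes named for them 64 (71.9%) were bound, 34 of these 64 (53.1%, interval 40.2 to 65.7) by 1 site, 14 by 2 and 16 by 3 or more. The share was 22 of 40 in the large subunit and 12 of 24 in the small. Among bound genes spanning up to 10 kb, 29 of 54 ribosomal protein genes (53.7%) and 323 of 1361 other genes (23.7%) held a single site. Scores had a median of 13.7 and reached 82.3 in RPS3. RPL37A had 65.0, RPL23A 55.1 and RPL39 47.9, the last at 51 nt before its end. In the last 1 kb lay 7 of the 34, against 490 of all 1662 (29.5%), and the median distance to the gene's end was 2480 nt. That 29.5% is not matched on span, since bound ribosomal protein genes had a median span of 5034 nt. In the 1310 single-site genes of 10 kb or more the share was 23.2%, so in shorter ones it was above 29.5%. Ribosomal protein genes have many processed pseudogenes, and the sources used here do not say how reads matching several places were treated.

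Genes of oxidative phosphorylation encoded in the nucleus had 53 of 86 (61.6%) bound, 26 of these 53 (49.1%, interval 35.1 to 63.2) by 1 site. Single sites were found in 12 of 24 bound genes of complex I, 1 of 3 of complex II, 4 of 7 of complex III, 3 of 7 of complex IV and 6 of 12 of complex V, the ATP synthase. Among bound genes of up to 20 kb the share was 19 of 43 (44.2%) against 605 of 2572 (23.5%) in other genes. Their scores were low apart from a few, with a median of 5.01. UQCR10 with 360, UQCRH with 88.2, COX7A2 with 61.2 and NDUFA8 with 60.4 led, and SDHA, the flavoprotein of complex II, had 0.0162, the lowest of all single sites. Of the 12 single sites within 50 nt of a gene start, 3 were in this list, which held 26 of all 1662 single sites. In oxidative phosphorylation genes with more sites, 3 of 77 sites also lay within 50 nt of the start. Such places were therefore not confined to the single sites of this list.

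Genes of the mitochondrial ribosome lay near the background. Of 59 bound, 12 held a single site (20.3%, interval 10.98 to 32.8) and 32 held 3 or more. These single sites scored a median of 18.9, and MRPL55 with 202, MRPL20 with 155 and MRPL54 with 144 had theirs 52, 171 and 108 nt before the gene's end. MRPS5 had 34.9.

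A further 7 lists lay above 22.4% with intervals that include it, 6 of which are described here. Proteasome genes had 11 single-site genes of 34 bound (32.4%), all of low or moderate score, led by PSMA4 with 15.7 and PSMC6 with 11.7. Sm and LSm genes, whose products bind spliceosomal and decay-linked RNA ends, had 7 of 19 (36.8%), led by LSM4 with 76.0 and SNRPF with 33.3. RAB GTPases had 10 of 34 (29.4%), led by RAB31 with 37.5 and RAB1B with 35.1. Vacuolar ATPase subunits had 3 of 11 (27.3%). Translation initiation factors had 12 of 45 (26.7%), led by EIF2B5 with 36.5 and the cap-binding protein EIF4E with 25.8, and solute carriers 31 of 125 (24.8%). Among positions at or above the median score, translation initiation factors had 10 of 31 (32.3%), below the 35.9% of all bound genes there.

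The 2 lists whose interval lay below 22.4% were ZNF zinc finger genes and DEAD-box helicases. Of 302 bound ZNF zinc finger genes, 40 (13.2%, interval 9.63 to 17.6) held 1 site, led by ZNF706 with 52.2, ZNF444 with 26.9 and ZNF692 with 24.7. DEAD-box and DEAH-box helicases had 3 of 38 (7.89%, interval 1.66 to 21.4), namely DDX49, DDX1 and DDX41 with scores of 8.69, 3.65 and 3.50. The next lists were lower than 22.4% with intervals that include it. Histone methyltransferases and demethylases had 4 of 39 (10.3%), namely SETD7, PHF2, KDM4B and SETD4 with 18.1, 17.0, 11.7 and 7.94. Among chromodomain helicases only CHD3 of 8 bound genes held 1 site, with a score of 4.97. The Mediator had 3 of 24 (12.5%), MED21 with 115, MED31 with 33.2 and MED10 with 8.48. Among positions at or above the median score it had 11 of 21 (52.4%), above the 35.9% of all bound genes there.

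Lists of m6A, mRNA decay, ribosome collision and glycolysis genes also lay below 22.4%, with intervals that include it. Of 14 bound genes for m6A writers, erasers and readers, which had a median of 11 sites, YTHDC2, the reader with a helicase domain, alone held 1, with a score of 21.2 at 1739 nt before the gene's end. Of 24 bound deadenylation and decapping genes 3 (12.5%) did, the CCR4-NOT subunit CNOT10 and the deadenylases CNOT6L and CNOT8, with 9.89, 6.79 and 2.71. In ribosome collision and quality control 2 of 13 did, ASCC2 of the ribosome-splitting ASC-1 complex with 7.80 and the cap-binding repressor EIF4E2 with 2.47. In glycolysis 1 of 10 did, PFKL with 16.3. Among positions at or above the median score, deadenylation and decapping genes had 8 of 21 (38.1%) and glycolysis genes 4 of 9 (44.4%), both above the 35.9% of all bound genes there.

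The intervals of the remaining lists with bound members also include 22.4%. TMEM genes had 19 of 95 (20.0%), led by TMEM106C with 110 and TMEM64 with 87.1, aminoacyl-tRNA synthetases 6 of 29 (20.7%), led by mitochondrial FARS2 with 23.6, and ubiquitin-conjugating enzymes 4 of 21 (19.0%), led by UBE2W with 21.7. Kinesins had 5 of 22 (22.7%), led by KIF2C with 32.8 and KIF3A with 28.2, and HOX genes 5 of 26 (19.2%), led by HOXC8 with 11.8. Chaperonin and prefoldin genes had 2 of 12 (16.7%), PFDN2 and PFDN6, and ARF and ARL genes 1 of 13 (7.69%). None of 11 haematopoietic marker genes was bound, and 3 of 13 neuronal marker genes (23.1%) were, none by a single site. Of all protein-coding genes 37.2% were bound.

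By chromosome the share of bound genes with 1 site ran from 15.7% on chromosome 16 (51 of 325, interval 11.9 to 20.1) to 27.8% on chromosome 6 (113 of 406, interval 23.5 to 32.5). Of the 20 single-site histone genes, 16 lie on chromosome 6 and 4 on chromosome 1. Without histone genes chromosome 6 had 97 of 386, or 25.1%.

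The rule leaves no other assigned position in the gene, but positions of neighbouring or overlapping genes could lie close. Of 1662 single sites, 0 had any listed position of the strand within 50 nt and 16 (0.963%) had one within 1 kb, which follows largely from the rule. In genes with 2 sites these lay a median of 300 nt apart, with quartiles of 86 and 2612 nt, and 204 of 1252 (16.3%) lay within 50 nt.

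The rows of the list run through the chromosomes 4 times on each strand, and the first 2 runs of each strand form a shorter part, the later runs a longer part. No label says what either stands for, and no treatment is assigned to them. Of the single sites 1279 (77.0%) were in the longer part alone, 196 (11.8%, interval 10.3 to 13.4) in the shorter alone and 187 (11.3%, interval 9.77 to 12.9) in both. For the sites of other genes these shares were 76.1, 8.94 (interval 8.63 to 9.24) and 15.0% (interval 14.6 to 15.4).

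Within the single sites, the share in the shorter part alone differed with gene span, place in the gene and some families. In the shortest of 10 equal classes by span, up to 5.69 kb, it was 37 of 190 (19.5%), and in the other classes 7.38 to 14.1%. Of single sites in the first 1 kb of long genes 16 of 79 (20.3%, interval 12.0 to 30.8) were in the shorter part alone, and of those in the last 1 kb 21 of 304 (6.91%, interval 4.33 to 10.4). Ribosomal protein genes had 13 of 34 (38.2%, interval 22.2 to 56.4) there, and the sites of ribosomal protein genes with more sites 26 of 92 (28.3%). Oxidative phosphorylation genes had 8 of 26 (30.8%, interval 14.3 to 51.8), against 15.6% of the sites of such genes with more sites. Mitochondrial ribosome genes had 0 of 12 (interval 0 to 26.5) and solute carriers 1 of 31 (3.23%, interval 0.0816 to 16.7). Both of these intervals include the 11.8% of all single sites. In genes of these 2 lists with more sites the shares were 6.02 and 7.62%. Among lists with fewer single sites, HOX genes had 3 of 5, Sm and LSm genes 3 of 7, translation initiation factors 4 of 12 and histone genes 4 of 20. RPS3, the highest-scoring ribosomal protein site, was in the shorter part alone. With the longer part alone, single-site genes were 81.0% of bound histone genes, 57.1% of ribosomal protein genes and 51.1% of oxidative phosphorylation genes, against 24.1% of all bound genes there.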

How the data were processed

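The 8 libraries (4 with STM2457, 4 with DMSO) share 1 deposited site list without sample values. Its score, positive and of unstated scale, is the authors' own. FastQC 0.11.8, STAR 2.7.3a, UMI-tools 1.0.0, bedtools 2.27.1 and GRCh38.p12 are named in the submitters' processing notes, with no role given. The sources used here do not name the site caller or any filter.

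The 43178 rows were joined into 37613 positions, keeping the higher score of the 5565 on 2 rows. Gene spans and promoter windows came from RefSeq tables on GRCh38.p14, whose main chromosomes patches leave unchanged, and 105 readthrough genes were left out. Strands came from the promoter table, and for 291 of the 1662 single-site genes from the site itself. Left out were 1744 positions in overlapping genes, 30 on the opposite strand and 112 outside. Named genes were the 10 highest-scoring members, the 5 of longest and 5 of shortest span, the 5 highest-scoring in the first and in the last 1 kb, up to 4 from each of 28 lists and those with a sequence. Other genes, such as the further histones, the sites within 50 nt of a start and SDHA, were chosen after their values were seen. The members and lists were chosen with earlier results of these data known. Steps ran in Python 3.11.15 and were tested on simulated positions. Some genes that the rule names are not reported here. Protein lengths were not used here.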

Additional observations from a re-analysis of the deposited data

How the results depend on the processing

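The number of single-site genes stayed within 1.5 times of 1662 under all 8 alternatives, from 1371 to 2230, but not always with the same genes. Merging positions within 50 nt gave 1912, all 1662 among them, and keeping positions at or above the median score gave 2084 of 5809 bound genes, of which 749 were among the 1662. In the longer part alone there were 1736 (1466 shared) and in the shorter alone 2230 of 4307 (383 shared). The difference in median percentile rank between single and other sites was −3.87, and −0.69 with the lower of 2 scores. It was −35.7 against the highest-scoring site of each gene and 32.8 against the lowest-scoring, a change of sign. The sign also changed in the shorter part alone, with medians of 50.2 for single sites and 49.8 for the others. The share of single sites in the last 1 kb, 23.2%, was 13.9% in a window of 500 nt (5.66% for other sites), 37.4% in 2000 nt (23.5%) and 29.5% in genes of any span (15.8%), each above the other sites. Between 10 and 15 of 26 lists lay above all bound genes, but single lists moved more. Among positions at or above the median score, Mediator genes went from 12.5 to 52.4%, chaperonin and prefoldin genes from 16.7 to 66.7%, vacuolar ATPase genes from 27.3 to 62.5%, RAB genes from 29.4 to 58.3% and glycolysis genes from 1 of 10 to 4 of 9. There, single-site genes were 18 of 20 bound histone genes, 26 of 47 ribosomal protein genes (55.3%) and 19 of 26 oxidative phosphorylation genes (73.1%), against 35.9% of all bound genes. The alternatives on the part of the list and on gene strand, and those on merging for scores and places, were chosen after seeing the data, and the one on protein length was not run. No paired analysis was possible because the list has no value per sample. Depth is unknown, so a gene with 1 site may hold others that were not called.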
